A study of Homo sapiens with 56 samples.

Results

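The 9 genes described here, HMOX1, NQO1, GCLM, GCLC, TXNRD1, SRXN1, SLC7A11, OSGIN1 and TXN, are antioxidant genes known as targets of the transcription factor NRF2. They were taken by gene symbol, and all 9 were found among the 21595 named genes of the deposited table. Each of the 9 also passed the filter on low values, 1 CPM (library-scaled counts) or above in at least 2 libraries, which left 16498 genes for testing.

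NRF2, encoded by NFE2L2, is held at a low level by KEAP1, an adaptor of the CUL3 ubiquitin ligase that hands NRF2 to the proteasome. When reactive cysteines of KEAP1 are modified by electrophiles or oxidants, NRF2 escapes, pairs with a small MAF protein and binds antioxidant response elements, which BACH1 otherwise occupies as a repressor. The targets degrade heme, reduce quinones and supply glutathione and thioredoxin, and HMOX1 is a common readout of drug-induced oxidative stress.

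The study comprised 56 poly-A RNA-seq libraries of 4 cultures of mantle cell lymphoma, a cancer of B cells: 15 of JEKO-1, 13 of Z138, and 15 and 13 of the MINO sublines MINO-P and MINO-VR. All are established cell lines. MINO-P and MINO-VR are called sublines here because they share a name, and the labels do not spell out P and VR. Of the 56 libraries, 5 were untreated (CON) and 11 received IBR, 6 BTZ, 6 S63845, 6 CLF and 4 YM155 as single drugs. Combinations with IBR were IBR_CLF (8 libraries), IBR_YM155 (2) and IBR_S63845 (1), and those with BTZ were BTZ_CLF (4), BTZ_YM155 (2) and BTZ_S63845 (1). BTZ and IBR are the usual abbreviations of the proteasome inhibitor bortezomib and the BTK inhibitor ibrutinib, and the design text names both drug classes. YM155 lowers BIRC5 (survivin) expression, S63845 inhibits MCL-1, and CLF is used as a code because the labels do not spell it out. Doses, exposure times and the number of separate cultures are not given in the sources used here, so p-values measure only the spread between these libraries, which may be technical. In cultured bulk samples, fewer cells of a type and less RNA per cell cannot be told apart.

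From the steps between low values, depth was put at 5.53 to 21.6 M reads (median 16.0 M over the libraries), so that 3 reads, taken as the floor, were worth 0.139 to 0.543 CPM. The share of CPM in mitochondrially encoded genes ran from 1.91% to 80.5% (median 6.69%), with the highest values in JEKO-1 under BTZ, BTZ_CLF and IBR_CLF. The 6 B-cell markers summed to 849 to 2319 CPM under CON, 733 to 3062 under IBR and 274 to 1672 under BTZ, while the 4 T-cell markers summed to at most 6.66 CPM. CCND1 and SOX11, which mark mantle cell lymphoma, were present in every line (lowest 12.8 CPM, SOX11 in JEKO-1), but CD5 was at most 0.464 CPM in Z138 and had a median of 0 there. With CD5, these markers summed to 2186 to 3614 CPM under CON, 653 to 2819 under IBR and 166 to 1812 under BTZ, with no overlap between BTZ and CON. The 7 monocyte or macrophage markers found in the table summed to 0.22 to 28.3 CPM under CON, 0.818 to 114 under IBR and 5.38 to 72.5 under BTZ. CD68 carried most of that sum in the MINO sublines (median 23.3 CPM in MINO-P and 70.3 in MINO-VR), CD163 was at 0 in every CON and IBR library, and the part of these genes in the results below was not tested. Library names formed 2 series, HK (8 libraries: CON, CLF, BTZ and BTZ_CLF of MINO-P and MINO-VR) and MCL (48). In MINO-P and MINO-VR, CON was in HK and IBR, YM155 and S63845 were in MCL, so there series and treatment cannot be told apart, whereas all libraries of JEKO-1 and Z138 were in MCL. A pair of libraries was singled out after seeing the data, on different measures. JEKO-1 BTZ replicate 3 had a gene profile that correlated with its own group at r = 0.742 at best. Z138 IBR_CLF replicates 1 and 2, after centring on their line, correlated at r = -0.18, and replicate 1 was most like a library of a drug it did not receive, Z138 S63845 replicate 1 (r = 0.552), while replicate 2 was most like Z138 IBR replicate 2 (r = 0.903). That measure was also low between the Z138 IBR libraries (r = -0.08) and for MINO-P IBR replicate 3 (r = 0.011), which were kept. Below, the counts of members called are given with all libraries, and without JEKO-1 BTZ replicate 3 and Z138 IBR_CLF replicate 1 where the count differs. Without the pair, HMOX1 in addition was called in IBR against S63845, a comparison with neither library in its arms. Over all genes, 639 were then called higher and 1585 lower there, against 405 and 1057 with all libraries.

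Promoter sequences are shown for GCLM, TXNRD1 and OSGIN1 because, among the 7 members with a RefSeq entry, their windows held a match to a searched motif. The windows are the 250 bases before the RefSeq start site on build GRCh38.p14, printed 5′ to 3′ on the gene's strand. Capitals mark the core of the antioxidant response element, TGACNNNGC on either strand, in GCLM and TXNRD1, and the AP-1 site TGANTCA in OSGIN1. These 2 motifs can overlap in a promoter, though no overlapping pair was found here.
GCLM (chr1:93909431-93909680, minus strand): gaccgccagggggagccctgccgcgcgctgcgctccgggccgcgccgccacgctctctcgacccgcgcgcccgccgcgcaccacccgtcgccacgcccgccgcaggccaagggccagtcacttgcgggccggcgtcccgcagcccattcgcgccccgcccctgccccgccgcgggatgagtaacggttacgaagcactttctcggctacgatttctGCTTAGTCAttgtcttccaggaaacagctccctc
TXNRD1 (chr12:104215529-104215778, plus strand): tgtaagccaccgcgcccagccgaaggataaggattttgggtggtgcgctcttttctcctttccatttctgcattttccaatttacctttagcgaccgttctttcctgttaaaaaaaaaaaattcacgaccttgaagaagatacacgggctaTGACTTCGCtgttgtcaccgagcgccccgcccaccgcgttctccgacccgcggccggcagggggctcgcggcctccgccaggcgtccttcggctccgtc
OSGIN1 (chr16:83952990-83953239, plus strand): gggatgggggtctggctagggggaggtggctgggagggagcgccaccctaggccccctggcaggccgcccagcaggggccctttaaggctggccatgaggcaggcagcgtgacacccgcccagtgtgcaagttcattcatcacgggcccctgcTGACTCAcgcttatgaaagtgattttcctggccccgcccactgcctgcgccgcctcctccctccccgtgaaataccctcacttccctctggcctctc

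The GCLM match lay 34 to 26 bases before the start on the strand opposite the gene, and the TXNRD1 match 99 to 91 bases before the start of the first of 2 listed entries. Of 35116 RefSeq promoter windows of the same length, 10.907% held the antioxidant response element core and 6.573% the AP-1 site. The windows of NQO1, GCLC, SRXN1 and TXN held none of these letters, and no window of the 7 held the trimeric heat shock element, which 0.441% of all windows held. A match describes the letters and does not show binding. The OSGIN1 and GCLC windows lie inside the spans the deposited table gives for those genes, and the NQO1 and GCLM windows lie partly inside theirs. The RefSeq starts used for these genes are thus not the outermost ones. For GCLC the window ends at 53545351 and the span at 53616971.

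Under IBR, 8 of the 9 genes rose against CON in the test across all genes (limma on log2(CPM + 1), a model of treatment, line and library series over 56 libraries, Benjamini-Hochberg adjusted p under 0.05), and none fell. Over all 16498 genes, 3.07% were called higher and 3.89% lower in the same comparison. The 9 genes had a median log2 fold change of 2.33, beside 0.02 over all genes. On this scale the fold change of genes with low CPM is understated.

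HMOX1 (ENSG00000100292, chromosome 22, 35380361 to 35394215) encodes the inducible heme oxygenase, which splits heme into biliverdin, iron and carbon monoxide. Its CON libraries held 25.8 CPM in MINO-P, 29.0 in MINO-VR, 12.1 in JEKO-1 and 4.18 and 1.02 in Z138. The 11 IBR libraries ran from 232 to 1249 CPM with a median of 347. Every IBR library was above every CON library, the lowest being MINO-P replicate 3. The group means were 14.4 ± 12.6 CPM (SD, n = 5) and 608 ± 391 CPM (SD, n = 11), and the fitted log2 fold change was 5.73 (SE 0.88, limma adjusted p 6.00e-05).

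By line, the difference of HMOX1 between IBR and CON in mean log2(CPM + 1) was 4.33 in MINO-P, 4.58 in MINO-VR, 4.56 in JEKO-1 and 7.33 in Z138. Replicates of a line were not alike under IBR: the MINO-P libraries held 753, 894 and 232 CPM, and those of MINO-VR 1075, 1249 and 274 CPM. Replicates 1 and 2 of each MINO subline are pairs whose library names differ only by a suffix, and they lay well above replicate 3. In Z138 replicate 1 held 1004 and replicate 2 held 269 CPM, and in JEKO-1 the 3 libraries held 347, 334 and 254 CPM.

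**Figure D1:**
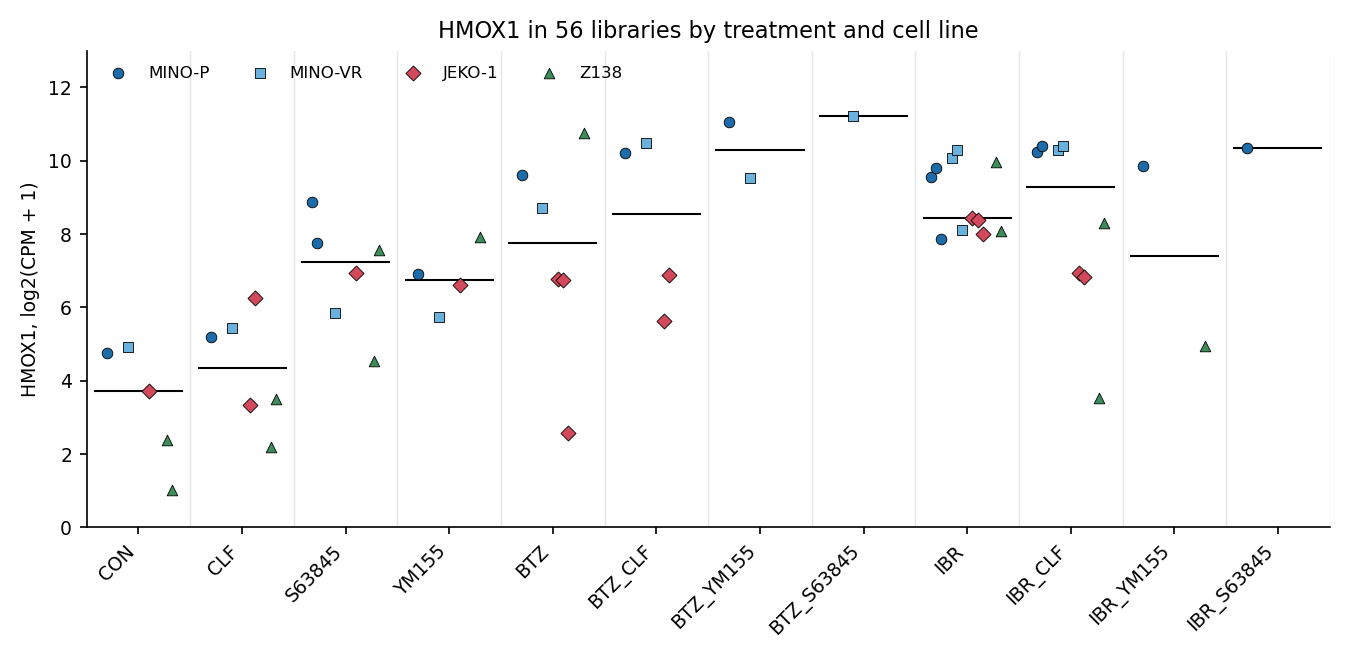
HMOX1 on the log2(CPM + 1) scale (vertical axis) in each of 56 libraries, grouped by treatment, with colour and shape giving the cell line and the black line the median of the treatment. All 11 IBR libraries lie above all 5 CON libraries, while single low points are seen for JEKO-1 under BTZ (4.99 CPM) and Z138 under IBR_CLF (10.6 CPM).

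NQO1 (ENSG00000181019, chromosome 16, 69706996 to 69726669) encodes a quinone reductase that takes both electrons in a single step. CON libraries held 6.99 (MINO-P), 6.98 (MINO-VR), 7.33 (JEKO-1), 8.80 and 3.47 CPM (Z138). Under IBR the range was 39.3 to 151 CPM with a median of 98.0. The 2 groups did not overlap, and the highest IBR value was Z138 replicate 2. The fitted log2 fold change was 3.66 (SE 0.64, adjusted p 0.000346), with differences by line of 3.35, 3.87, 2.75 and 4.04 in the order given above for HMOX1.

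Among the genes of glutathione supply, both subunits of glutamate-cysteine ligase rose under IBR. GCLC is the catalytic subunit and GCLM the modifier subunit that raises its affinity for glutamate. GCLM (chromosome 1, 93885199 to 93909457) held 15.9 to 28.5 CPM under CON and 39.9 to 150 under IBR (median 93.2), with no overlap. Its fitted log2 fold change was 1.5 (SE 0.47, adjusted p 0.0390), and of the members called under IBR it was the one whose call was lost under most alternatives (10 of 27). GCLC (chromosome 6, 53497341 to 53616971) held 24.8 to 46.5 CPM under CON and 40.7 to 111 under IBR (median 85.2). The GCLC groups overlapped only through Z138 IBR replicate 1 at 40.7 CPM, which was still above both Z138 CON libraries (24.8 and 25.9 CPM). The GCLC fold change was 1.18 (log2, SE 0.31, adjusted p 0.0130).

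SLC7A11 (chromosome 4, 138164097 to 138242350), the light chain of the cystine and glutamate exchanger that imports cystine for glutathione, was called higher over all lines, with line values on both sides of CON. CON libraries held 100 CPM in MINO-P and 88.3 in MINO-VR, but 9.88 in JEKO-1 and 38.3 and 15.6 in Z138. Under IBR the 3 MINO-P libraries held 122, 103 and 23.9 CPM and the 3 MINO-VR libraries 102, 105 and 67.2 CPM. The JEKO-1 libraries held 60.9, 60.0 and 168 CPM and those of Z138 99.0 and 188 CPM. All 5 JEKO-1 and Z138 libraries were thus above CON of their own line, while the MINO libraries lay on both sides of theirs: the differences in mean log2(CPM + 1) were -0.57 in MINO-P, 0.02 in MINO-VR, 2.98 in JEKO-1 and 2.43 in Z138. The fit gave 2.33 (log2, SE 0.50, adjusted p 0.00234) with the library series as a term and called no change without it (log2 1.33, adjusted p 0.0818). It was called with JEKO-1 and Z138 alone, which hold no HK library. Whether the lines differ in this response was not tested.

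In the thioredoxin group, SRXN1, the sulfiredoxin that restores overoxidised peroxiredoxins, had the largest change. SRXN1 (chromosome 20, 646615 to 653201) held 33.7 (MINO-P), 43.5 (MINO-VR), 23.1 (JEKO-1), 10.6 and 15.9 CPM (Z138) under CON. IBR libraries held 98.9 to 550 CPM with a median of 175, all above every CON library. Its log2 fold change was 3.03 (SE 0.52, adjusted p 0.000211).

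TXNRD1 (chromosome 12, 104215779 to 104350308), the cytosolic reductase that keeps thioredoxin reduced, held 173 to 280 CPM under CON and 421 to 844 under IBR (median 678). These groups did not overlap, and the log2 fold change was 1.36 (SE 0.38, adjusted p 0.0228). TXN (chromosome 9, 110243810 to 110256508), thioredoxin itself, did not pass the test (log2 0.41, SE 0.35, adjusted p 0.549). Its CON level was 44.7 CPM in MINO-P, 88.0 in MINO-VR, 219 in JEKO-1 and 69.3 and 71.8 in Z138. Under IBR it was 85.6 to 122 CPM in MINO-P, 124 to 161 in MINO-VR, 129 to 200 in JEKO-1 and 92.2 and 106 in Z138. The 8 IBR libraries of MINO-P, MINO-VR and Z138 were above CON of their line and the 3 of JEKO-1 below it.

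OSGIN1 (chromosome 16, 83931311 to 83966333), an oxidative stress-induced growth inhibitor, was close to the detection floor without drug. CON libraries held 0.359 to 1.12 CPM. IBR libraries held 15.9 to 150 CPM with a median of 52.7. Every IBR library was above every CON library, and the fitted log2 fold change was 4.92 (SE 0.77, adjusted p 7.44e-05). HMOX1, NQO1, SRXN1 and OSGIN1 were called under IBR in all 27 alternatives run for them.

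**Figure D2:**
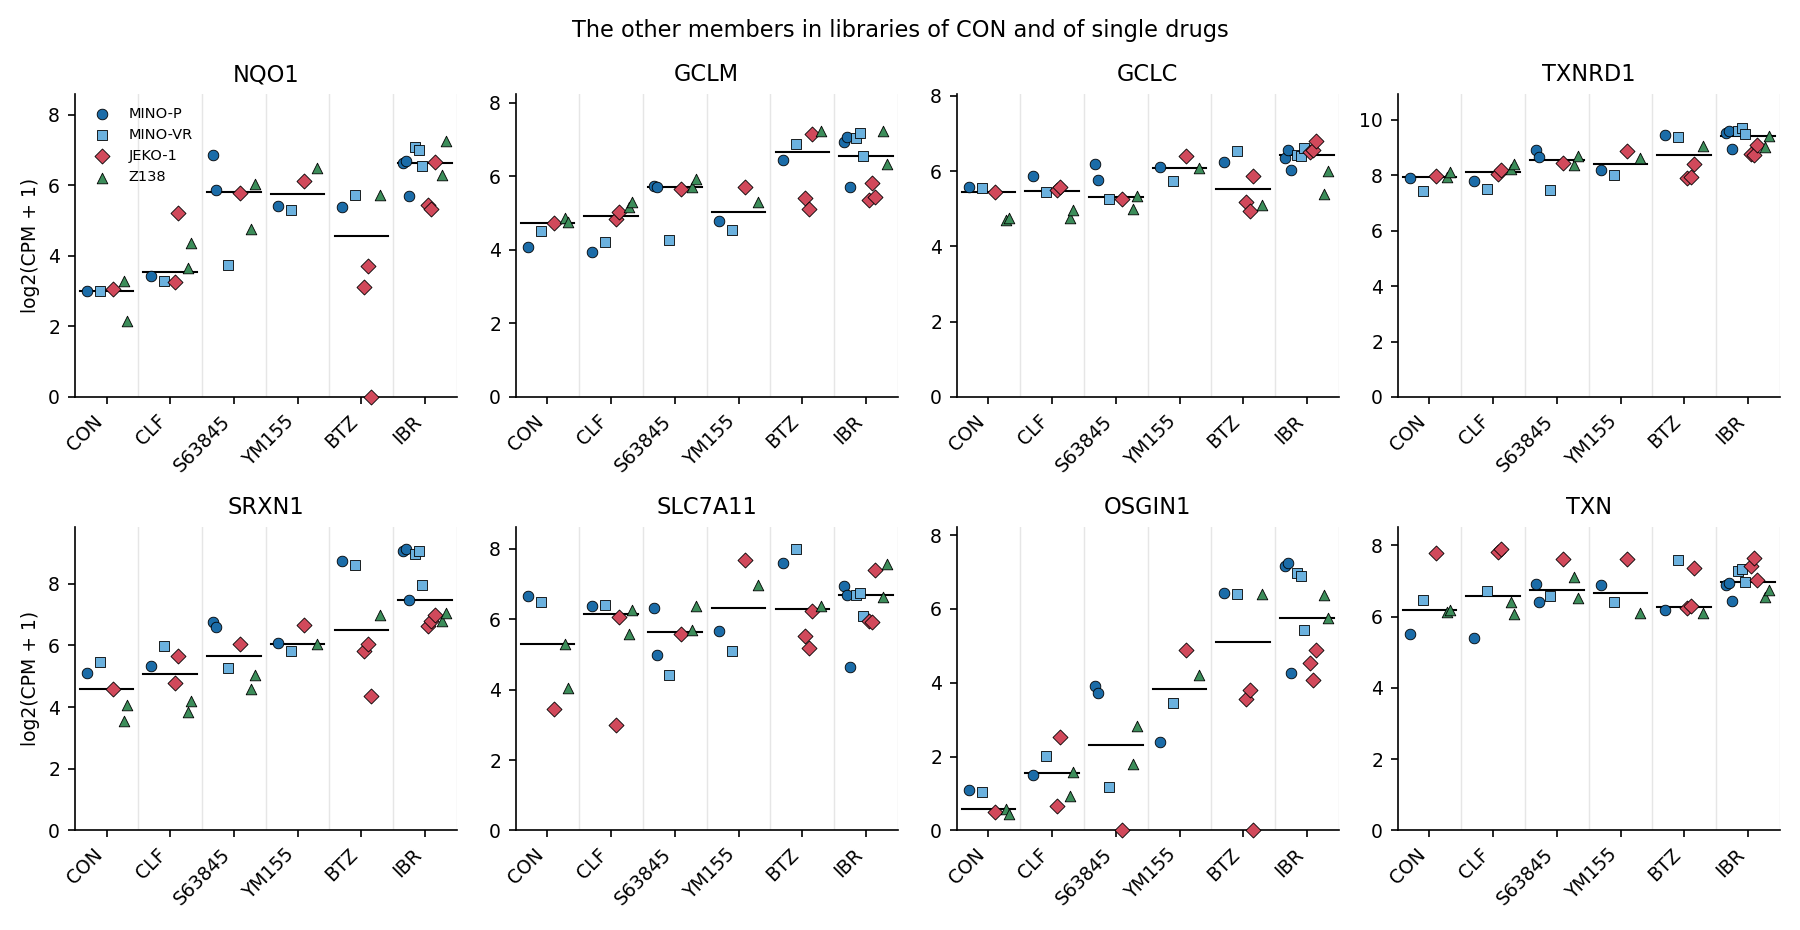
The other 8 genes on the log2(CPM + 1) scale (vertical axes, separate for each gene) in libraries of CON and of 5 single drugs, with the cell line by colour and shape and the median as a black line. NQO1, GCLM, TXNRD1, SRXN1 and OSGIN1 show no overlap between IBR and CON, whereas TXN overlaps (44.7 to 219 CPM under CON and 85.6 to 200 under IBR). All IBR libraries lay above all CON libraries for 0.843% of all genes tested.

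Under BTZ, 5 of the 9 genes rose against the same CON libraries and none fell, in a comparison where 1.75% of all genes were called higher and 22.3% lower. The 5 were HMOX1, GCLM, SRXN1, SLC7A11 and OSGIN1. The median of the 9 was 1.62 (log2) beside -0.42 over all genes. The shift of all genes moved with the scaling. The mitochondrial share was 67.6% and 67.5% in JEKO-1 BTZ replicates 1 and 2, 9.92% in replicate 3 and 4.11% to 5.73% in the other lines. Whether that share underlies the shift was not tested. With mitochondrial genes left out the median of all genes was -0.17 and 7 members were called, and with size factors it was -0.07 with 8 members called. Over all genes, 288 were called higher and 3678 lower as deposited, 838 and 2366 without mitochondrial genes, and 1375 and 1888 with size factors. Without the pair of libraries singled out above, 6 members were called (NQO1 in addition), beside 455 genes higher and 4819 lower.

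HMOX1 held 776 CPM in MINO-P, 421 in MINO-VR, 1735 in Z138 and 109, 107 and 4.99 in the 3 JEKO-1 libraries under BTZ. The Z138 library had the highest level of any single-drug library, and JEKO-1 replicate 3 was below CON of its line (12.1 CPM). With mitochondrial genes left out, JEKO-1 replicates 1 and 2 held 335 and 328 CPM. The HMOX1 fold change was 4.38 (log2, SE 0.90, adjusted p 0.000339), or 5.22 (adjusted p 8.06e-07) without that pair of libraries.

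OSGIN1 held 84.6 (MINO-P), 83.0 (MINO-VR) and 83.2 CPM (Z138) under BTZ, and 10.8, 13 and 0 CPM in JEKO-1. The library listed at 0 is replicate 3, where 3 reads would be worth 0.199 CPM and where NQO1 and HMOX2 were also listed at 0. The OSGIN1 fold change was 4.15 (log2, SE 0.79, adjusted p 0.000123), or 4.87 (adjusted p 4.24e-07) without the pair.

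SRXN1 reached 426 and 388 CPM in MINO-P and MINO-VR, 125 in Z138 and 55.3, 64.6 and 19.7 in JEKO-1 (log2 2.29, SE 0.53, adjusted p 0.00113), and 2.66 (adjusted p 4.06e-05) was the value without the pair. GCLM held 86.9 and 117 CPM in the MINO sublines, 150 in Z138 and 41.4, 33.7 and 141 in JEKO-1. GCLM was the only member whose BTZ and CON libraries did not overlap, and JEKO-1 replicate 3, low for HMOX1, was high for GCLM. Over all genes tested, 0.23% had every BTZ library above every CON library. The GCLM fold change was 2.0 (log2, SE 0.48, adjusted p 0.00160), or 1.82 (adjusted p 0.00274) without the pair.

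SLC7A11 held 192 and 251 CPM in MINO-P and MINO-VR under BTZ, against 100 and 88.3 under CON. In Z138 it held 81.1 and in JEKO-1 45.2, 35.3 and 73.5 CPM, all above CON of the line (log2 1.62, SE 0.51, adjusted p 0.0150). The value was 1.52 (adjusted p 0.0183) without the pair, and the call was lost without the JEKO-1 CON library (adjusted p 0.0650).

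NQO1, GCLC, TXNRD1 and TXN did not pass the test under BTZ. NQO1 held 41.1, 51.8 and 51.4 CPM in MINO-P, MINO-VR and Z138, above their CON levels, but 7.65, 12.1 and 0 in JEKO-1 (log2 1.41, SE 0.66, adjusted p 0.111), and it was called without the pair (2.03, adjusted p 0.00755). TXNRD1 held 706, 667 and 529 CPM in MINO-P, MINO-VR and Z138 and 240, 243 and 342 in JEKO-1 (log2 1.02, SE 0.39, adjusted p 0.0513). In JEKO-1 replicates 1 and 2, 4 of 9 members were at 2 times the CON of the line or more as deposited, and 8 of 9 with mitochondrial genes left out, a scaling that raises every other gene of these libraries. Over all genes tested, 6.63% and 6.39% were at that level as deposited, and 17.5% and 17.3% with mitochondrial genes left out. In replicate 3 it was 2 of 9 members under both, beside 20.1% and 21.9% of all genes. GCLC (log2 0.42, adjusted p 0.340) and TXN (log2 0.01, adjusted p 0.990) were nearest to CON.

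**Figure D3:**
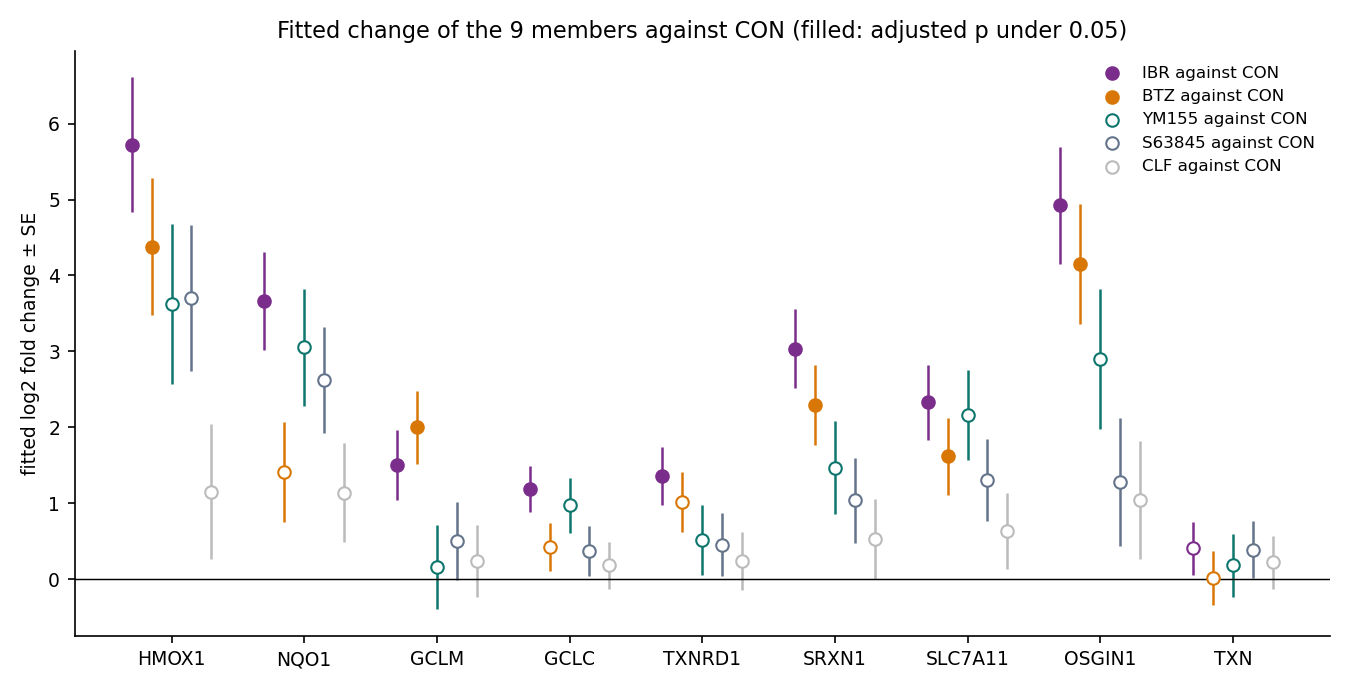
Fitted log2 fold change with its standard error (vertical axis) of each gene under 5 single drugs against the shared CON libraries. Filled points have an adjusted p under 0.05, which holds for 8 genes under IBR and 5 under BTZ, and none under YM155, S63845 or CLF.

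YM155, S63845 and CLF alone gave no call among the 9 genes by limma. These 3 comparisons share their CON libraries with each other and with IBR and BTZ. The background was 0.194% of all genes called higher under YM155, 32 genes beside 13 lower, or 98 and 92 with size factors. It was 0% called in either direction under S63845 (414 genes at an unadjusted p under 0.05) and 0% under CLF (58 genes). At an unadjusted p under 0.05, 6 members stood under YM155 (beside 2109 of all 16498 genes), 3 under S63845 and 0 under CLF.

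Under YM155, HMOX1 held 119 CPM in MINO-P, 52.4 in MINO-VR, 96.5 in JEKO-1 and 241 in Z138, each above every CON library. NQO1 held 41.4, 38.3, 68.0 and 89.7 CPM in the same order, again with no overlap. Their fitted log2 values were 3.63 (SE 1.05, adjusted p 0.101) and 3.05 (SE 0.77, adjusted p 0.0608). GCLC, SRXN1 and OSGIN1 likewise had no overlap with CON (1.78% of all genes had every YM155 library above every CON library), while SLC7A11 was above CON of its line in JEKO-1 (204 CPM) and Z138 (123) and below it in MINO-P (49.9) and MINO-VR (33.5). Without the pair of libraries singled out above, neither of which received YM155, HMOX1 (adjusted p 0.0204), NQO1 (0.0182), SLC7A11 (0.0355) and OSGIN1 (0.0384) were called, beside 148 genes higher and 67 lower over all genes. In the main model these 4 calls rest on that exclusion. With all libraries, size factors, array weights, no mitochondrial genes or no series term each gave 1 call among the members. Of all genes they called 190, 672, 197 and 46 in that order.

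Under S63845, HMOX1 held 465 and 216 CPM in MINO-P, 56.8 in MINO-VR, 121 in JEKO-1 and 22.1 and 189 in Z138. All 6 were above CON of their own line, though Z138 replicate 1 was below the MINO CON levels. By p-value HMOX1 ranked 5 and NQO1 6 of 16498 genes, yet neither passed the adjustment (log2 3.70, SE 0.97 and 2.62, SE 0.70, both with adjusted p 1.00). NQO1 ran from 12.4 CPM in MINO-VR to 115 in MINO-P. In the single MINO-VR library none of the 9 genes was at 2 times CON or more, and the share of all genes at that level was not counted.

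Under CLF, HMOX1 ran from 3.60 to 75.5 CPM (median 23.0) and overlapped CON. JEKO-1 CLF replicate 2 was the highest for HMOX1 and also for NQO1 (35.8 CPM) and OSGIN1 (4.77 CPM), while replicate 1 of that line held 9.18, 8.49 and 0.574 CPM. The fitted log2 value of HMOX1 under CLF was 1.15 (SE 0.89, adjusted p 1.00).

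IBR and S63845 were both given to all 4 lines within the MCL series, and IBR gave the higher level of GCLC (log2 0.81, SE 0.26, adjusted p 0.0380, a call lost in 12 of 28 alternatives), SRXN1 (2.0, SE 0.44, adjusted p 0.00257) and OSGIN1 (3.65, SE 0.65, adjusted p 0.000377). The background called higher was 2.45%, with 405 genes higher and 1057 lower as deposited and 1064 and 1318 with size factors. OSGIN1 was at 15.9 to 150 CPM under IBR and at 0 to 14.2 under S63845 (listed at 0 in JEKO-1, where 3 reads are worth 0.248 CPM), with all 11 IBR libraries above the highest S63845 library of their line. NQO1 was at 51.0 to 103 CPM under IBR and 56.8 and 115 under S63845 in MINO-P, and at 92.1 to 134 and 12.4 CPM in MINO-VR. The difference between lines in this contrast was not called for any member (F-test over 17 libraries, background 0.151%), with unadjusted p from 0.00714 for NQO1 to 0.0341 for SRXN1 among the 4 members under 0.05, beside 1737 of all 15280 genes. Without MINO-P IBR replicate 3 the count of members higher under IBR was 6, but the number of all genes called there is not given here. With JEKO-1 and Z138 alone the count of members was 0. With those 2 lines alone, 1 of all genes was called in either direction.

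The combinations were compared with each partner alone. IBR_CLF against CLF gave 4 members higher, HMOX1 (log2 4.05, SE 0.87, adjusted p 0.00482), SRXN1 (2.07, SE 0.51, adjusted p 0.0126), SLC7A11 (1.72, SE 0.48, adjusted p 0.0286) and OSGIN1 (3.14, SE 0.75, adjusted p 0.0113), beside 0.909% of all genes. With the near-identical pairs averaged as 1 library, none of the 4 was called (HMOX1 adjusted p 0.0622), and 61 of all genes were, against 814 before. The names of these pairs differ only by a suffix, and Z138 was left out of the averaging. In MINO-P and MINO-VR, CLF was in the HK series and IBR_CLF in MCL, so the value there rests on the series term. JEKO-1 and Z138 alone, where both are in MCL, gave 0 calls among the members (HMOX1 2.57, adjusted p 0.210), and 3 among all genes. Without the pair of libraries singled out above, 5 were called, NQO1 in addition (1.95, adjusted p 0.0166), beside 426 genes higher and 1941 lower. BTZ_CLF against CLF gave HMOX1 (3.58, SE 0.97, adjusted p 0.00330), GCLM (1.31, SE 0.51, adjusted p 0.0358), SRXN1 (2.01, SE 0.57, adjusted p 0.00466) and OSGIN1 (3.77, SE 0.84, adjusted p 0.000566), beside 1.39% of all genes called higher. Over all genes 230 were called higher and 6463 lower as deposited, and 1309 and 1431 with size factors. For IBR_CLF against CLF these numbers were 150 and 664, and 673 and 683 with size factors. The GCLM call in BTZ_CLF against CLF was lost in 7 of 21 alternatives. By line, its difference in mean log2(CPM + 1) was 2.69 in MINO-P, 2.65 in MINO-VR and 0.02 in JEKO-1.

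Adding CLF to IBR gave no call among the members (background 0.0121% of all genes in either direction), with 8 of 9 fitted values below 0 where the median of all genes was -0.13. With array weights 6 of 9 were above 0. By line, HMOX1 held 1211 and 1357 CPM in MINO-P and 1258 and 1353 in MINO-VR under IBR_CLF, each above every IBR library of its subline. In JEKO-1 it held 121 and 113 CPM, below all 3 IBR libraries. In Z138 it held 10.6 and 315 CPM. The mitochondrial share in JEKO-1 was 59.1% and 60.7% under IBR_CLF and 13.5% to 20.9% under IBR. With mitochondrial genes left out, the JEKO-1 means of HMOX1 were 292 CPM under IBR_CLF and 383 under IBR, those of NQO1 25.2 and 72.9, and those of OSGIN1 10.3 and 26.9.

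Adding CLF to BTZ likewise gave no call (0% of all genes, 986 of them at an unadjusted p under 0.05, none a member). HMOX1 held 1191 CPM in MINO-P and 1419 in MINO-VR under BTZ_CLF, against 776 and 421 under BTZ. In JEKO-1 the 2 libraries held 48.6 and 117 CPM, with mitochondrial shares of 80.5% and 65.5%.

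**Figure D4:**
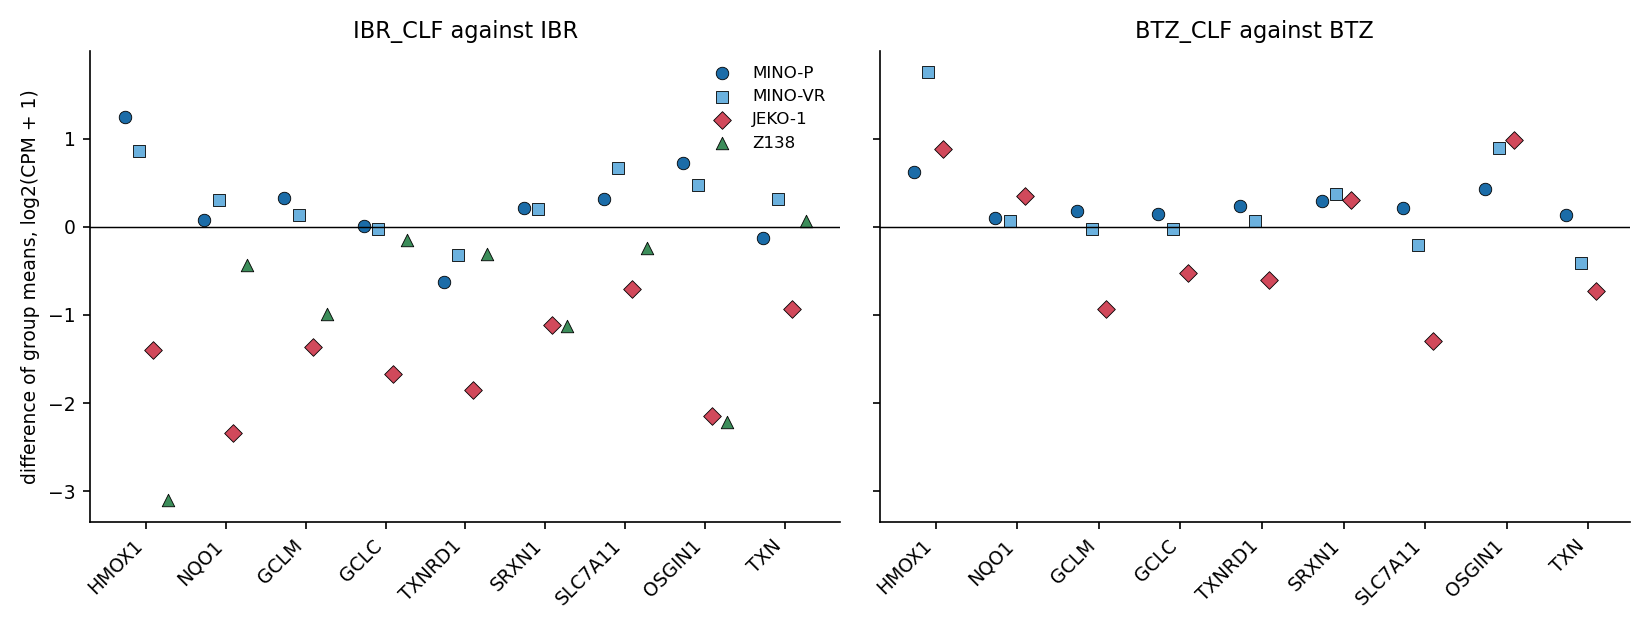
Difference of group means in log2(CPM + 1) when CLF was added to IBR (left) or BTZ (right), for each gene and line; points above 0 are higher with CLF. For IBR, HMOX1 is above 0 in MINO-P (1.25) and MINO-VR (0.86) and below 0 in JEKO-1 (-1.39) and Z138 (-3.10), where the 2 IBR_CLF libraries held 10.6 and 315 CPM.

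IBR_YM155 and BTZ_YM155 had 2 libraries each, in different lines. IBR_YM155 held 923 CPM of HMOX1 in MINO-P and 30.1 in Z138, where YM155 alone held 241 and IBR alone 1004 and 269. In Z138 every member was lower in the combination than in either drug alone, and in MINO-P every member was above the mean of IBR alone. Each direction rests on 1 library of the combination, and how many of all genes moved likewise was not counted. The mitochondrial share in MINO-P was 25.5% under IBR_YM155 and 8.51% to 17.5% under IBR. No member was called against IBR (0% of all genes, 537 at an unadjusted p under 0.05) or against YM155 (0%, 310 genes). BTZ_YM155 held 2126 CPM of HMOX1 in MINO-P and 742 in MINO-VR, above BTZ alone in both, and no member was called against BTZ (0.921% in either direction) or YM155 (0.339%), with 2 members at an unadjusted p under 0.05 against BTZ (beside 2868 of all genes) and 4 against YM155 (beside 1552). The single MINO-VR library of BTZ_S63845 held the highest HMOX1 of the series (2367 CPM), and that of IBR_S63845 in MINO-P the highest NQO1 (257), GCLM (199) and TXNRD1 (1130). These last 2 libraries have no replicate.

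**Figure D5:**
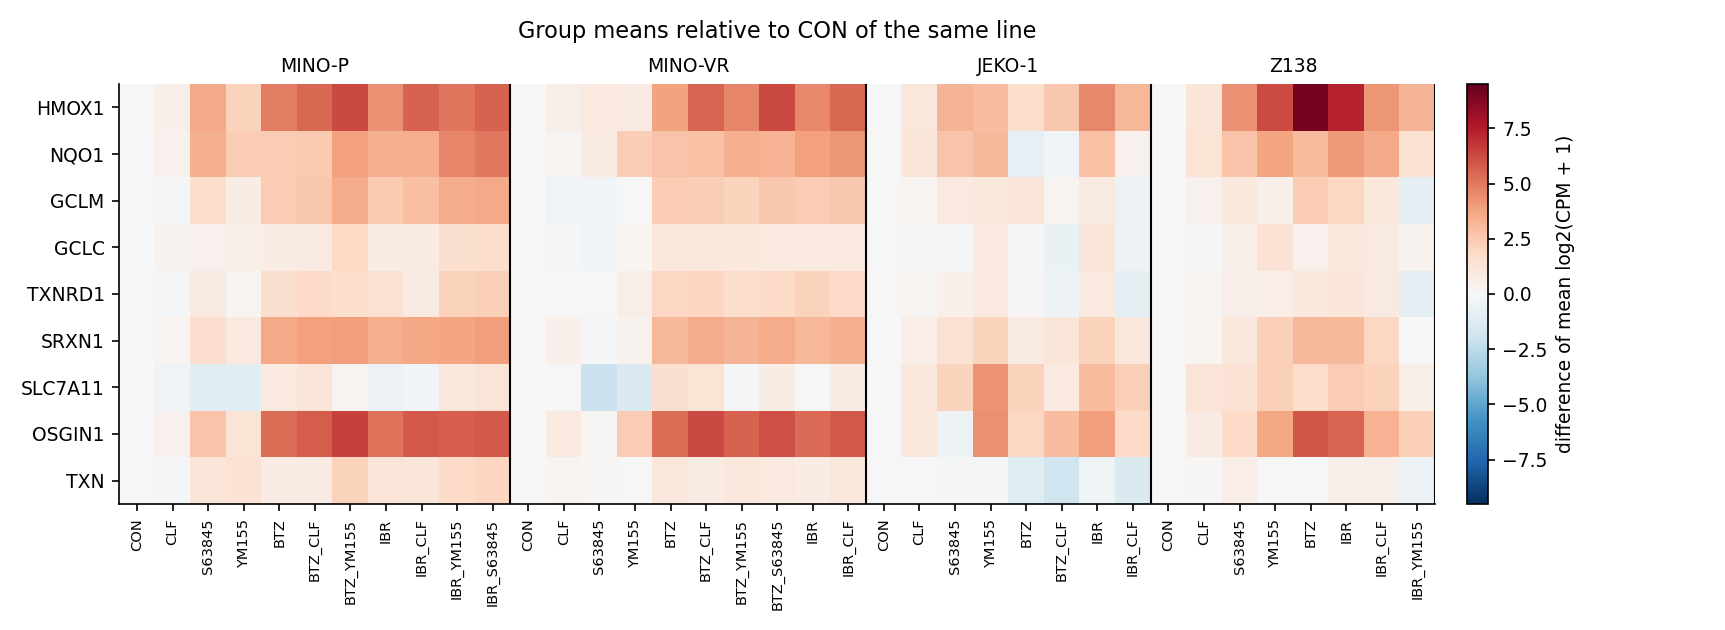
Mean log2(CPM + 1) of each of 37 groups of line and treatment minus the mean of CON of the same line, by gene (rows) and group (columns); red is higher and blue lower. The largest difference is HMOX1 in Z138 under BTZ (9.07) and the lowest SLC7A11 in MINO-VR under S63845 (-2.05).

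Differences between the 4 lines at like treatment were called for 8 of 9 members, all but SLC7A11, in a comparison where 68.5% of all genes were called (moderated F-test), so the count says little of the members. It was 4 with the near-identical pairs averaged and 3 with groups averaged. SRXN1 had the smallest adjusted p of the 9 (1.2e-05), with CON levels of 33.7 and 43.5 CPM in the MINO sublines and 10.6 to 23.1 in the other lines. Between the sublines only TXN differed, higher in MINO-VR by 0.55 (log2, SE 0.15, adjusted p 0.00831), beside 14.8% of genes called higher.

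NFE2L2 held 146 ± 57.2 CPM under CON (SD, n = 5) and 158 ± 47.4 under IBR (n = 11), with a fitted log2 value of 0.32 (SE 0.36, adjusted p 0.678), and -0.05 under BTZ (adjusted p 0.938). KEAP1 was at 0.79 under IBR (SE 0.43, adjusted p 0.283) and at -0.90 under BTZ (SE 0.44, adjusted p 0.125). Of the 9 regulators, 4 rose under IBR and none fell: SQSTM1, the autophagy receptor that can sequester KEAP1 (log2 3.02, SE 0.56, adjusted p 0.000629), the small MAF gene MAFG (2.52, SE 0.40, adjusted p 8.30e-05), the repressor BACH1 (1.67, SE 0.31, adjusted p 0.000513) and NFE2L1 (1.19, SE 0.38, adjusted p 0.0442). Under BTZ, SQSTM1 (2.06, adjusted p 0.00660), MAFF (1.56, adjusted p 0.0174) and MAFG (1.19, adjusted p 0.0287) rose, and BACH1 did not pass (0.80, adjusted p 0.0521).

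Of 30 other NRF2 targets, 23 were tested. Under IBR 6 rose and 1 fell: ABHD4, a lysophospholipase, was higher by 4.12 (log2, SE 0.67, adjusted p 0.000101), EPHX1, the microsomal epoxide hydrolase, by 2.80 (SE 0.43, adjusted p 6.0e-05), and the transporter ABCC4 had a log2 value of -1.18 (SE 0.36, adjusted p 0.0350). Under BTZ 3 rose and 2 fell, led by ABHD4 (2.27, adjusted p 0.0113) and PIR (1.76, adjusted p 0.0117), with AKR1B1 at -1.93 (adjusted p 0.000226) and TRIM16 at -0.99 (adjusted p 0.0378). The TRIM16 call was lost without mitochondrial genes (adjusted p 0.138), with size factors (0.203) and without the pair of libraries singled out above (0.0712). EPHX1 was also called under YM155 (2.49, SE 0.52, adjusted p 0.0241). The medians of the 23 were 0.98 under IBR and -0.10 under BTZ, the latter 0.21 without mitochondrial genes, where 6 rose and 1 fell.

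Of 22 other glutathione and thioredoxin enzymes, GGT1 rose under IBR (1.23, SE 0.40, adjusted p 0.0480) and TXNIP, the thioredoxin-binding inhibitor, fell by 1.51 on the log2 scale (SE 0.43, adjusted p 0.0229). Under BTZ 8 of the 22 fell, where 22.3% of all genes were called lower, led by PRDX4 (-2.16, adjusted p 0.000156) and CHAC1 (-2.13, adjusted p 0.00477), and GGT1 rose (1.37, adjusted p 0.0109). The number that fell under BTZ was 5 without mitochondrial genes and 1, PRDX4, with size factors, and 4 then rose under either scaling. In the heme and iron list, the ferritin chains FTL (2.27, SE 0.48, adjusted p 0.00234) and FTH1 (2.0, SE 0.48, adjusted p 0.00688) and the heme transporter SLC48A1 (2.04, SE 0.48, adjusted p 0.00607) rose under IBR. HMOX2, the constitutive heme oxygenase, was at 0.04 under IBR (SE 0.40, adjusted p 0.970) and fell by 1.43 under BTZ (SE 0.40, adjusted p 0.00745). Of the 7 genes of the list tested, 3 rose and none fell under IBR, whereas under BTZ FTL rose (1.65, adjusted p 0.0109) and 3 fell, HMOX2, the biliverdin reductase BLVRA (-1.39, adjusted p 0.00253) and the transferrin receptor TFRC (-1.18, adjusted p 0.0460). TFRC was not called under BTZ without mitochondrial genes or with size factors. Of 15 ATF4 targets, a list that bears on SLC7A11 because ATF4 also drives that gene, 4 rose under IBR and none fell, led by TRIB3 (2.13, adjusted p 0.0156) and SLC3A2, the heavy chain partner of SLC7A11 (1.83, adjusted p 0.0422). The SLC3A2 call was lost without mitochondrial genes and with size factors (adjusted p 0.0552 in both), where 3 of the list rose. Under BTZ 1 rose, ATF3 (2.0, adjusted p 0.0300), and 5 fell beside the same 22.3% of all genes, led by PHGDH (-2.37, adjusted p 0.000143) and CHAC1, a number that was 3 without mitochondrial genes and 2 with size factors.

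Across the 37 groups, each gene centred on its line, the 36 pairs of members correlated at r = 0.304 to 0.948 with a median of 0.745, the lowest being SLC7A11 with TXN. These are descriptions: the members share libraries and scaling, and the groups of a line share the mean they were centred on. Among the 5 genes of 10769 most like HMOX1 were SQSTM1 (r = 0.921), ABHD4 (0.905), GABARAPL1 (0.9) and FTL (0.892). Those most like the mean of the 9 were LUCAT1 (0.946), SQSTM1 (0.934), STK40 (0.909), KLHL21 (0.903) and MAFG (0.902).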

How the data were processed

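RNA from 56 libraries of 4 mantle cell lymphoma cultures was sequenced after poly-A enrichment, per the labels' protocols. The values deposited by the authors are log2 of library-scaled counts (CPM) plus 1, since each library's values, with the log2 undone, summed to nearly the same total, as CPM do. Partek and hg38 are named in the submitters' processing notes. The aligner, counter, annotation release and strand use are not given in the sources used here, so reads shared with overlapping or near-identical genes could not be told apart. Low values came out as whole reads (tolerance 0.05 reads) for 79.3% to 89.5% of them per library, too few for a count test.

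The 9 members were taken by symbol. A trended limma model (version 3.58.1, R 4.3.3) was fitted to log2(CPM + 1) of the 16498 genes that reached 1 CPM in at least 2 libraries, as 1 additive model of treatment, line and library series (HK or MCL). MINO-VR against MINO-P used 14631 genes, and the interaction of line with IBR against S63845 used 15280 genes and 17 libraries. Adjusted p-values are Benjamini-Hochberg over all genes tested, with a threshold of 0.05, in 17 comparisons. The 37 groups of line and treatment held 1 (22 groups), 2 (11) or 3 (4) libraries, and replicate numbers only name libraries. Library pairs of MINO-P, MINO-VR and JEKO-1 whose names differ only by a suffix (8 pairs) were kept as separate libraries, and averaging them was an alternative. Z138 also holds pairs named in this way, which were never averaged. The 8 pairs are called near-identical here, though the JEKO-1 BTZ_CLF pair correlated at only r = 0.594 after centring on the line. Other alternatives were a pseudocount of 0.25, no filter, mitochondrial genes left out, size factors, array weights, the suffix as a block, no series term, JEKO-1 and Z138 alone, groups averaged, and each library left out. Leaving out a pair of libraries (JEKO-1 BTZ replicate 3 and Z138 IBR_CLF replicate 1) was chosen after seeing the data. The scripts were tested on simulated data.

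The members, the gene lists and the alternatives were chosen with earlier results of these data known. By rule, up to 2 rises and 2 falls, the largest among those called, are named per list, plus HMOX2, NFE2L2, KEAP1 and BACH1. NFE2L1, FTH1 and TFRC under IBR or BTZ, and MAFG under BTZ, were named beyond it, to complete short counts, and the named like genes are the 5 with the highest correlation at a mean of 5 CPM or more, of which 1 is not reported here. Floors cover counting error only. Promoters came from RefSeq (GRCh38.p14), in which 7 of 9 members matched. Promoters of HMOX1 and SLC7A11 are not shown here.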

Additional observations from a re-analysis of the deposited data

How the results depend on the processing

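Values are numbers of the 9 members called. The number of all genes called, in either direction, also moved with the setting. It is given after most counts, with the main model in brackets. Averaging the near-identical pairs gave 0 in IBR_CLF against CLF (4 in the main model) and 4 between the lines (8). Of all genes, 61 were called in that IBR_CLF comparison (814). Averaging all libraries of a group gave 5 in IBR against CON (8), 2 in IBR_CLF against CLF and 3 between the lines. Of all genes it called 443 in IBR against CON (1147) and 132 in IBR_CLF against CLF. JEKO-1 and Z138 alone gave 5 in IBR against CON, 0 in IBR against S63845 (3), 0 in IBR_CLF against CLF and 2 in BTZ_CLF against CLF (4, with OSGIN1 higher and TXN lower), from fewer libraries. Of all genes, these lines called 79 in IBR against CON and 1 in IBR against S63845 (1462). They called 3 in IBR_CLF against CLF and 7381 in BTZ_CLF against CLF (6693). Size factors gave 8 in BTZ against CON (5), 1 in YM155 against CON (0) and 6 in IBR against S63845. Of all genes they called 3263 in BTZ against CON (3966), 190 in YM155 against CON (45) and 2382 in IBR against S63845. Leaving out mitochondrial genes gave 1 in YM155 against CON and 5 in IBR against S63845, and dropping the series term 1 in YM155 against CON. Of all genes, the former called 197 and 2306 in the same order, and the latter 46 in YM155 against CON. Array weights gave 8 in BTZ against CON, 1 in YM155 against CON, 1 in S63845 against CON (0), 8 in IBR against S63845, 7 in IBR_CLF against CLF, 5 in BTZ_YM155 against YM155 (0) and 4 in the interaction (0). Of all genes, array weights called 4873 in BTZ against CON, 672 in YM155 against CON and 3 in S63845 against CON (0). They called 4891 in IBR against S63845, 3470 in IBR_CLF against CLF and 1414 in BTZ_YM155 against YM155 (56). Without the pair of libraries left out after seeing the data, YM155 against CON gave 4. Of all genes, 215 were called there. The cause of these differences was not tested. Leaving out each library in turn gave 2 to 6 in IBR against S63845, 6 to 8 in IBR against CON, 5 to 6 in BTZ against CON, 3 to 5 in IBR_CLF against CLF and 3 to 4 in BTZ_CLF against CLF. The number of all genes called is not given here for these ranges, for the averaged fits between the lines or for the interaction with array weights. Those counts of members can therefore not be set against all genes.

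No fitted value of a called member changed sign under these alternatives. Taking the library-name suffix as a replicate block gave 8 in IBR against CON and 5 in BTZ against CON, beside 1017 and 3984 of all genes. That block ended the calls of GCLC in IBR against S63845 and of SLC7A11 in IBR_CLF against CLF (adjusted p 0.0540). The labels give no replicate numbers that pair libraries across treatments. OSGIN1 under CON (0.359 to 1.12 CPM) lay near the value of 3 reads, which limits the precision of its folds.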
